A study of Homo sapiens with 28 samples.

Results

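The subject is a set of 9 genes, SCIMP, WDR66, DHRS9, MYLK3, PTPRF, NTN3, SALL4, LONRF2 and SPEF2, whose transcripts were low after 6 h of auxin in SEM cells with a degron on CTCF. They were chosen by their falls in these 6 h comparisons, from 57820 genes read, so their 6 h values are a description with no test. All 9 passed the filter on low values in the 6 h set and 8 passed it in the 24 h set, where PTPRF stayed at or below 1 CPM, the counts of a gene per M counts of its library, in every library. SEM is a cell line from a human B-cell precursor leukemia with the MLL-AF4 fusion, and RNA-seq was done on 28 libraries.

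The 6 h set held 16 libraries of 4 lines labelled WT, DeltaZ1, DeltaZ10 and DeltaRBR, each with IAA for 6 h and without IAA, with 2 libraries per group. In the study all 4 are CTCF-AID2 degron cells with a doxycycline-inducible CTCF added: full-length in WT, without zinc finger 1 in DeltaZ1, without zinc finger 10 in DeltaZ10 and without the region that binds RNA in DeltaRBR. The labels do not mention doxycycline. The study's methods do give doxycycline for these lines, to switch on the added CTCF, but do not assign it to single RNA-seq libraries. Whether a given library held the added CTCF is therefore unknown here. The labels name the auxin of this set IAA, while the study's methods give 10 µM 5-Ph-IAA for 6 h for these lines. For the 6 h set, IAA is therefore used here only as the label's word. The 24 h set held CTCF-AID2 cells with 5-Ph-IAA for 24 h (4 libraries) and without it (4 libraries), and SEM cells labelled WT with IAA (2 libraries) and without it (2 libraries). These WT cells are a different line from the WT line of the 6 h set and have no degron. Per the study they received natural IAA with doxycycline, so the auxin regimen differed from that of the CTCF-AID2 cells. The dose for CTCF-AID2 cells is 1 µM in the sample titles and 10 µM in the protocol for 24 h. Apart from those WT cells, every line carried the tag on its own CTCF in the untreated groups too, together with a modified OsTIR1 under a constitutive viral promoter. Per the study these lines also held a tagged EGFP and a wild-type OsTIR1 inducible by doxycycline. In their parent line the study saw leaky degradation of CTCF when doxycycline induced that OsTIR1.

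CTCF is a zinc finger protein that binds DNA and stops cohesin as it extrudes chromatin loops, which places promoters and distant enhancers together or apart. In the degron system an auxin joins the tagged protein to the plant F-box protein OsTIR1, and the tagged protein is then degraded within hours. The 9 genes belong to no single pathway. SCIMP is a transmembrane adaptor of B cells and other antigen-presenting cells. WDR66, now called CFAP251, and SPEF2 are proteins of motile cilia and the sperm flagellum. DHRS9 is a dehydrogenase of retinol and steroids, MYLK3 the cardiac myosin light chain kinase, PTPRF the receptor tyrosine phosphatase LAR, NTN3 a secreted netrin, SALL4 a zinc finger transcription factor of embryonic stem cells and LONRF2 a RING finger ubiquitin ligase.

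The members lie on 7 chromosomes (GRCh37, positions from the Gencode annotation lifted to that build). SCIMP spans chr17:5112215-5138155, WDR66 chr12:122356498-122441833, DHRS9 chr2:169921299-169952677, MYLK3 chr16:46736194-46824319, PTPRF chr1:43990858-44089337, NTN3 chr16:2521298-2524146, SALL4 chr20:50398870-50419060, LONRF2 chr2:100888337-100938963 and SPEF2 chr5:35617946-35814713. NTN3 is the shortest at 2849 bases and SPEF2 the longest at 196768 bases, against a median of 27710 bases for the genes tested. A long noncoding antisense gene of that annotation overlaps SCIMP, and RP11-87C12.2 overlaps WDR66 on the same strand. Whether counting used strand was not stated, so reads of SCIMP and of its antisense partner cannot be told apart.

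RefSeq promoter windows (GRCh38.p14, 250 bases before to 50 after each start) were held for 6 of the 9 members, PTPRF, LONRF2, DHRS9, SPEF2, WDR66 and MYLK3, with 10 starts in all. They were searched on both strands for the core CTCF consensus, for the E box CACGTG, for the TATA box TATAAA and for the GC box GGGCGG. The 250 bases before the start are printed for SPEF2, because it holds the CTCF match and was not low in every line at 6 h. They are printed for WDR66 and DHRS9 as a contrast of a CpG-rich and an AT-rich promoter. Capitals mark the matches. The SPEF2 window is chr5:35617613-35617862, plus strand, the WDR66 window chr12:121918342-121918591, plus strand, and the DHRS9 window, of the first of its 4 starts, chr2:169066827-169067076, plus strand.
SPEF2: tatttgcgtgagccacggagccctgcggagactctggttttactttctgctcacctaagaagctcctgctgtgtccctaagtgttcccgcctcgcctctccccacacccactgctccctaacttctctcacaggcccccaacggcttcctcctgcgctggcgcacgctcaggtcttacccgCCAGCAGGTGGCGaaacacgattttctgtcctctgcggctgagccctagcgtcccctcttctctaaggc
WDR66: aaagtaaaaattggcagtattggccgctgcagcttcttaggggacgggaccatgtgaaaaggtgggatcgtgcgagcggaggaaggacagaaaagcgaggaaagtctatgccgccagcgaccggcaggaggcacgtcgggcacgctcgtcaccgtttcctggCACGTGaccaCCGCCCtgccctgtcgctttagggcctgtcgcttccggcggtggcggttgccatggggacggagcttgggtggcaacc
DHRS9: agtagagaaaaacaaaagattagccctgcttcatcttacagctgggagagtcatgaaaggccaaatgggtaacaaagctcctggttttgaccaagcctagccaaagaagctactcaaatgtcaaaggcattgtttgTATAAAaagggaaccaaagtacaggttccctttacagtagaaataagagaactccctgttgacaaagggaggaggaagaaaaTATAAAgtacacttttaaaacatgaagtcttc

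In SPEF2 the capitals are the CTCF consensus, from 69 to 57 bases before the start. Of all 35116 windows in the table, 0.396% hold that consensus, and among the members' 10 windows it was found only in that of SPEF2. In WDR66 the capitals are an E box from 88 to 83 bases before the start, present in 7.26% of all windows, followed by a GC box on the other strand from 78 to 73 bases before it, present in 45.0%. LONRF2 also held a GC box. In DHRS9 the capitals are TATA boxes, the nearer from 32 to 27 bases before the start, a motif found in 11.5% of all windows. GC content of the 250 bases was 60% in SPEF2, 62% in WDR66 and 39.2% at this start of DHRS9, against a median of 58% over all windows. These are matches of letters, and binding of CTCF was not examined here. The study mapped binding by ChIP-seq, which sequences DNA bound to a protein, in CTCF-AID2 cells and for each added CTCF.

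Library totals lay between 25.8 and 60.7 M counts at 6 h and between 45.7 and 59.8 M counts at 24 h. CTCF mRNA, which the degron does not target, was 252 ± 3.04 CPM with 5-Ph-IAA and 147 ± 3.18 CPM without in CTCF-AID2 cells (SD, n = 4 each). At 6 h its mean with IAA was 232 CPM against 152 CPM without in WT, and 277 against 156 CPM in DeltaZ1. It was 255 against 153 CPM in DeltaZ10 and 211 against 160 CPM in DeltaRBR. The part of the added CTCF in these counts was not tested. B-cell precursor markers matched the label: 8 of 10 were above 1 CPM in every library, PAX5 among them at 385 to 790 CPM, while DNTT lay at 0.0801 to 1.09 CPM. CD3D was at 0 in every library and CD3E and CD3G were at or near 0, although TRAC and NKG7 were above 1 CPM in every library, and 6 of 6 erythroid markers stayed below 1 CPM. PDGFRB was the 1 stromal marker of 6 above 1 CPM in every library. Of 10 myeloid markers, CSF1R, LYZ and ITGAM were above 1 CPM in every library and 6, MPO, CD14 and S100A8 among them, below 1 CPM in every one. Whether replicate libraries stem from separate cultures was not given, so errors and p-values measure the spread between these libraries only.

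All 9 members were low with IAA at 6 h in the WT line, and 8 of the 9 were low in every deletion line. SPEF2 was the exception, in DeltaZ1. A gene counted as called when its limma adjusted p was at most 0.05 and its log2 fold change at least 1 in size. By that rule 9 members were called lower in the WT line, where 1.09% of all 13902 genes tested were. The same count was 7 in DeltaZ1 (background 1.89%), 8 in DeltaZ10 (1.01%) and 6 in DeltaRBR (0.683%). SCIMP, WDR66, DHRS9, MYLK3, PTPRF and NTN3 were called lower in all 4 lines, where 34 genes (0.245%) were. SALL4 was called in 3 lines, LONRF2 in 2 and SPEF2 in 1, so the name shared by all lines holds for 6 of the 9. These contrasts chose the members and nothing is read from the shares. In a fit of the DeltaZ1 libraries alone no member was called, as no gene was called lower there, and without the second treated DeltaZ1 library 3 were. In DeltaZ10, leaving out any of its 4 libraries lowered the count to between 4 and 5.

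The median log2 fold change of the members at 6 h was -1.91 in WT, -1.27 in DeltaZ1, -1.28 in DeltaZ10 and -1.42 in DeltaRBR, with a median of -0.00 to -0.01 over all genes tested in each line. The mean level with IAA was between 18.5 and 32.4% of that without IAA in WT, and between 18.1 and 71.0% in DeltaRBR. Every library with IAA was below every one without IAA for 9 members in WT, DeltaZ10 and DeltaRBR and for 8 in DeltaZ1, where 32.7%, 32.7%, 32.8% and 29.5% of all genes had that pattern. 3 members, DHRS9, MYLK3 and SALL4, passed the filter of the 6 h set only through untreated libraries, so for them the filter itself required a high untreated level. In bulk samples, fewer cells of a type and less RNA per cell cannot be told apart.

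**Figure D1:**
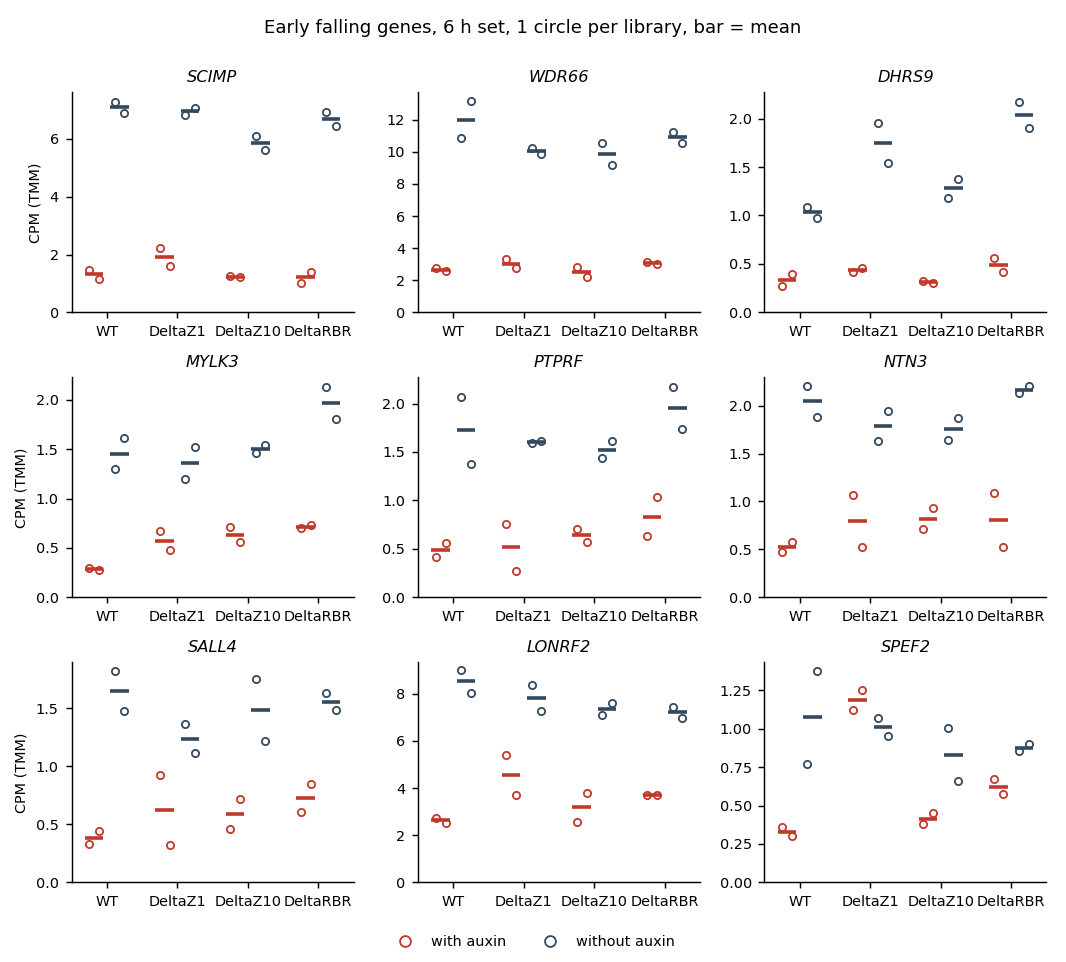
Level of each of the 9 genes in the 16 libraries of the 6 h set. The y axis of each panel is CPM with TMM scaling from 0, the x axis the line, each circle 1 library with (red, left) or without (dark, right) auxin, and the bar the mean of 2 libraries. SPEF2 in DeltaZ1 is the 1 panel position where both red circles, at 1.12 and 1.25 CPM, lie above both dark ones.

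SCIMP and WDR66 held the highest levels per length (TPM) among the members in untreated cells at 6 h. SCIMP had 1.46 and 1.16 CPM with IAA against 7.29 and 6.89 CPM without in WT, 2.24 and 1.60 against 6.81 and 7.08 CPM in DeltaZ1, 1.25 and 1.22 against 6.10 and 5.61 CPM in DeltaZ10, and 1.02 and 1.40 against 6.91 and 6.43 CPM in DeltaRBR. All treated libraries were low and none reached the untreated range. The log2 fold changes of SCIMP were -2.46 ± 0.19 (SE) in WT, -1.89 ± 0.16 in DeltaZ1, -2.22 ± 0.18 in DeltaZ10 and -2.46 ± 0.19 in DeltaRBR.

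WDR66 had 2.74 and 2.58 CPM with IAA against 10.9 and 13.1 CPM without in WT, 3.31 and 2.76 against 10.2 and 9.84 CPM in DeltaZ1, 2.81 and 2.23 against 10.5 and 9.19 CPM in DeltaZ10, and 3.16 and 3.02 against 11.3 and 10.5 CPM in DeltaRBR. The treated libraries of the 4 lines lay close together, between 2.23 and 3.31 CPM. Its log2 fold changes were -2.17 ± 0.15, -1.74 ± 0.15, -1.98 ± 0.15 and -1.80 ± 0.14 (SE) in that order of lines.

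DHRS9 had 0.268 and 0.400 CPM with IAA against 1.09 and 0.975 CPM without in WT, with log2 fold changes of -1.59 ± 0.28 (SE) in WT and between -1.96 and -2.04 in the deletion lines. Its untreated mean differed most between lines among the members, 2.04 CPM in DeltaRBR and 1.03 CPM in WT, and this was the 1 member with its weakest change in the WT line. For each of the other 8 except PTPRF and SCIMP, the change was strongest in the WT line: PTPRF had -1.83 ± 0.39 in DeltaZ1 and -1.75 ± 0.39 in WT, which differ by less than their errors, and SCIMP was equal at 2 decimals in WT and DeltaRBR. LYZ, a myeloid marker, had the profile most like that of DHRS9 over the 16 libraries (r = 0.968). The summed level of the 10 myeloid markers was lower with IAA in every line, at 21.3 to 24.2 CPM against 35.4 to 35.6 CPM in WT, 20.6 to 25.2 against 35.6 to 37.5 CPM in DeltaZ1, 19.7 to 21.4 against 32.1 to 35.5 CPM in DeltaZ10 and 24.2 to 25.1 against 44.9 to 45.0 CPM in DeltaRBR. Of the 3 myeloid markers tested at 6 h, 2 were lower on the adjusted p in every line, where 5.68 to 16.4% of all genes were. The other was higher in each deletion line, where 4.80 to 17.1% of all genes were. Summed B-cell precursor markers were also lower with IAA in WT, at 1265 to 1290 against 1376 to 1440 CPM. The same held in DeltaZ10, at 1235 to 1261 against 1377 to 1393 CPM, and in DeltaRBR, at 1242 to 1359 against 1367 to 1408 CPM. In DeltaZ1 they overlapped, at 1232 to 1507 against 1356 to 1459 CPM. Of 10 B-cell precursor markers tested, 3 were called lower in WT and 2 in each deletion line, where 0.683 to 1.89% of all genes were. None was called higher. The part of these markers in the falls of the members was not tested.

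MYLK3 had 0.298 and 0.280 CPM with IAA against 1.297 and 1.61 CPM without in WT, a log2 fold change of -2.29 ± 0.28 (SE), and between -1.25 and -1.42 in the deletion lines. PTPRF had 0.417 and 0.560 CPM with IAA against 2.07 and 1.38 CPM without in WT. Its 2 treated DeltaZ1 libraries lay far apart at 0.757 and 0.274 CPM, against 1.59 and 1.62 CPM without IAA. NTN3 had 0.477 and 0.580 CPM with IAA against 2.21 and 1.88 CPM without in WT, a log2 fold change of -1.91 ± 0.36. The deletion lines had weaker NTN3 values, from -1.09 to -1.51. The second treated DeltaZ1 library was the lower of the pair for NTN3 as well, at 0.524 CPM beside 1.06 CPM.

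SALL4 had 0.328 and 0.440 CPM with IAA against 1.82 and 1.48 CPM without in WT, a log2 fold change of -2.05 ± 0.43 (SE). In the deletion lines it was -1.21 ± 0.40 in DeltaZ1, -1.23 ± 0.37 in DeltaZ10 and -1.10 ± 0.37 in DeltaRBR, and the last was not called. LONRF2 had 2.74 and 2.52 CPM with IAA against 9.01 and 8.04 CPM without in WT (-1.70 ± 0.20). In DeltaZ1 and DeltaRBR its log2 fold changes of -0.82 ± 0.17 and -0.95 ± 0.18 stayed under the fold threshold. With IAA LONRF2 had 2.56 to 3.79 CPM in DeltaZ10, 3.69 to 3.70 CPM in DeltaRBR and 3.72 to 5.41 CPM in DeltaZ1, and the lower DeltaZ10 library lay within the range of the treated WT libraries. The untreated libraries of the 4 lines lay between 6.96 and 9.01 CPM.

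SPEF2 had 0.358 and 0.300 CPM with IAA against 0.771 and 1.38 CPM without in WT, a log2 fold change of -1.65 ± 0.33 (SE). In DeltaZ10 it had 0.382 and 0.449 CPM with IAA against 1.01 and 0.658 CPM without (-0.88 ± 0.30), and in DeltaRBR 0.674 and 0.573 against 0.854 and 0.901 CPM (-0.50 ± 0.29). DeltaZ1 had no fall. There SPEF2 had 1.12 and 1.25 CPM with IAA against 1.07 and 0.951 CPM without, a log2 fold change of 0.24 ± 0.25. The counts behind these values were small, 40 and 55 reads with IAA against 47 and 40 without in DeltaZ1, and 12 and 15 against 22 and 41 in WT. The difference between lines was not tested, since these libraries chose the gene.

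Levels between genes were compared per length, as TPM, which scales counts by transcript length, over the 8 untreated libraries of the 6 h set. WDR66 averaged 2.12 ± 0.358 TPM and SCIMP 1.80 ± 0.261 TPM (SD, n = 8), and their ranges overlapped. The others were lower: DHRS9 0.499 ± 0.169, NTN3 0.451 ± 0.0673, MYLK3 0.328 ± 0.0770, SALL4 0.298 ± 0.0287, LONRF2 0.253 ± 0.0423, SPEF2 0.228 ± 0.0665 and PTPRF 0.206 ± 0.115 TPM. Each neighbour in that order overlapped the next, except that the lowest SCIMP library, at 1.46 TPM, lay above the highest DHRS9 library, at 0.71 TPM. LONRF2 thus ranked low per length although its mean CPM was above that of SCIMP in every group of the 6 h set. The labels name a 3′ kit and the methods total RNA, and whether scaling by length suits these libraries was not tested.

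At 24 h in CTCF-AID2 cells the falls of SCIMP, WDR66, SALL4 and SPEF2 were present past the call, and those of DHRS9, MYLK3, NTN3 and LONRF2 were not. These libraries did not choose the members, although the set was proposed with results of the whole series known. Of the 8 members tested 4 were called lower and none higher, where 1.67% of all 13973 genes tested were called lower and 1.89% higher. The median log2 fold change of the 8 was -0.88, with -0.00 over all genes tested. Of the 9 members 8 had every treated library below every untreated one, where 26.6% of all genes did. LONRF2 was the one that overlapped.

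SPEF2 had the lowest log2 fold change of the 8. It had 0.217, 0.199, 0.132 and 0.276 CPM with 5-Ph-IAA against 1.07, 1.18, 1.02 and 0.982 CPM without. The treated mean was 19.4% of the untreated one, and the log2 fold change was -2.37 ± 0.21 (SE, limma adjusted p = 3.09e-07). In reads this was 8 to 14 per treated library and 50 to 64 per untreated library. Its 24 h value in CTCF-AID2 cells stood at -2.37 beside -1.65 in the WT line at 6 h, in different lines and perhaps at different doses, so they were not compared by a test.

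SCIMP had 2.83, 2.14, 2.90 and 2.05 CPM with 5-Ph-IAA against 6.50, 6.81, 5.64 and 6.99 CPM without. Treated and untreated libraries were well apart, and the log2 fold change was -1.39 ± 0.12 (SE, limma adjusted p = 2.07e-07). The antisense gene that overlaps SCIMP rose, with 2.06 ± 0.156 CPM against 0.865 ± 0.238 CPM (SD, n = 4 each, log2 fold change 1.27, limma adjusted p = 8.11e-06). WDR66 had 3.55, 3.39, 3.97 and 3.65 CPM with 5-Ph-IAA against 7.78, 7.42, 7.13 and 8.42 CPM without. The treated mean of WDR66 was 47.3% of the untreated one, with no overlap of the libraries and -1.08 ± 0.07 on the log2 scale (SE, limma adjusted p = 2.41e-08).

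SALL4 had 0.585, 0.634, 0.563 and 0.631 CPM with 5-Ph-IAA against 1.32, 1.35, 1.39 and 1.58 CPM without. The groups did not overlap and the log2 fold change was -1.22 ± 0.12 (SE, limma adjusted p = 1.13e-06). PTPRF was below the filter, so it had no value in that fit. It had 0.201, 0.199, 0.463 and 0.434 CPM with 5-Ph-IAA against 0.940, 0.554, 0.733 and 0.832 CPM without. Its treated libraries were all lower, on 11 to 28 reads against 30 to 50, with a two-sided exact permutation p of 0.0286, the smallest that 4 against 4 libraries allow. In the fit with no filter beyond 1 count its log2 fold change was -1.30 ± 0.29 (SE, limma adjusted p = 0.00263). In TPM its groups overlapped, at 0.05 to 0.06 with 5-Ph-IAA against 0.04 to 0.07 without (means 0.0525 and 0.0575). The fall of PTPRF at 24 h was thus seen in CPM and not in TPM.

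The other 4 members were nearer to their untreated levels at 24 h. DHRS9 had 1.09, 1.03, 1.13 and 1.18 CPM with 5-Ph-IAA against 2.37, 1.68, 1.98 and 1.31 CPM without, -0.68 ± 0.17 on the log2 scale (SE, limma adjusted p = 0.00345). MYLK3 had 1.51, 1.03, 1.37 and 1.36 CPM against 1.71, 1.59, 1.71 and 1.90 CPM (-0.40 ± 0.12, limma adjusted p = 0.0123). Both passed on the adjusted p, as 29.5% of all genes did in that direction and 29.2% in the other, and fell short of the fold threshold. NTN3 had 1.52, 1.43, 1.32 and 1.46 CPM with 5-Ph-IAA against 1.71, 1.75, 1.79 and 1.96 CPM without (-0.33 ± 0.12, limma adjusted p = 0.0266). LONRF2 had 7.51, 5.89, 6.75 and 5.70 CPM against 6.58, 7.98, 7.13 and 7.94 CPM (-0.20 ± 0.09, limma adjusted p = 0.0739), and it did not pass. The highest treated LONRF2 library exceeded 2 of the 4 untreated ones.

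**Figure D2:**
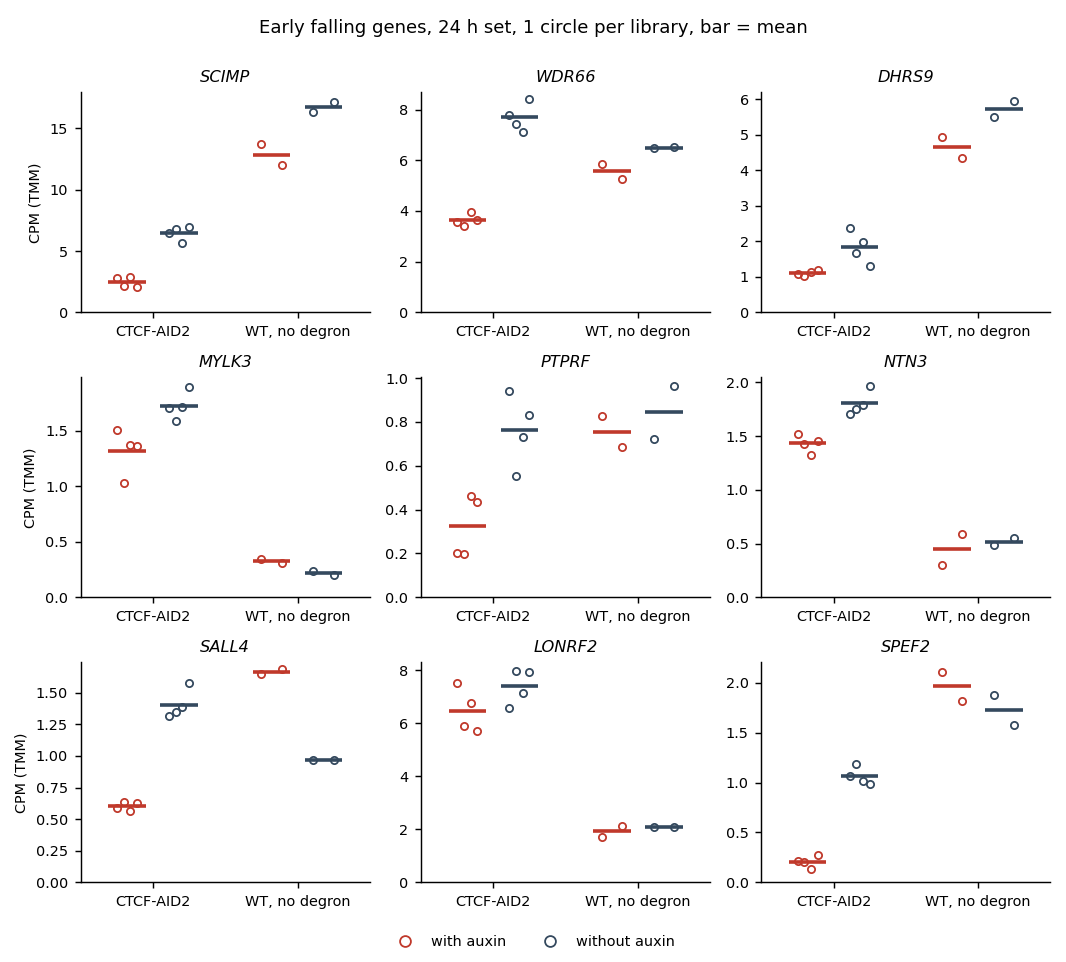
Level of each of the 9 genes in the 12 libraries of the 24 h set. The y axis of each panel is CPM with TMM scaling from 0, the x axis CTCF-AID2 cells and WT cells without the degron, each circle 1 library with (red, left) or without (dark, right) auxin, and the bar the group mean. In CTCF-AID2 cells all red circles lie below the dark ones for 8 genes, SPEF2 at 0.132 to 0.276 CPM against 0.982 to 1.18 CPM, while in WT cells SALL4 lies higher with IAA.

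In WT cells without the degron, IAA for 24 h gave no call among the 8 members tested, where 0.623% of all genes were called lower and 0.479% higher, and 2 members passed on the adjusted p, 1 in each direction, where 9.57% of all genes were lower and 9.35% higher by it. SCIMP had 13.7 and 12.01 CPM with IAA against 16.3 and 17.2 CPM without, -0.39 ± 0.10 on the log2 scale (SE, limma adjusted p = 0.0147). SALL4 was higher with IAA, 1.65 and 1.68 CPM against 0.966 and 0.965 CPM (0.78 ± 0.16, limma adjusted p = 0.00337). The other 6 had values from -0.30 for DHRS9 to 0.57 for MYLK3, each with a limma adjusted p of 0.137 or more. By unadjusted p under 0.05, SCIMP, WDR66, DHRS9 and SALL4 passed, and neither edgeR nor DESeq2 called a member. Every treated library lay below every untreated one for 3 members, where 28% of all genes had that pattern. PTPRF had 0.825 and 0.686 CPM with IAA against 0.724 and 0.965 CPM without. Its groups overlapped.

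The effect in CTCF-AID2 cells was below that in WT cells for SCIMP, SALL4 and SPEF2 past the call, where 2.28% of all genes were called in that direction and 2.59% in the other, with no member in the other. SPEF2 was at -2.37 in CTCF-AID2 and 0.18 in WT cells, a difference of -2.55 ± 0.27 (SE, limma adjusted p = 5.27e-06). SALL4 was at -1.22 and 0.78, a difference of -2.0 ± 0.20 (limma adjusted p = 2.94e-06). SCIMP was at -1.39 and -0.39, a difference of -1.004 ± 0.15 (limma adjusted p = 0.000157) that lies at the fold threshold. Removing the second or the fourth treated or untreated CTCF-AID2 library, or the first treated or untreated WT library, took SCIMP under it, to -0.91 at the weakest. WDR66 (-0.85 ± 0.13, limma adjusted p = 0.000114) and MYLK3 (-0.97 ± 0.36, limma adjusted p = 0.0465) passed on the adjusted p alone. Removing the first treated or the second untreated CTCF-AID2 library took MYLK3 past the call, at -1.05 and -1.01. For DHRS9, NTN3 and LONRF2 the differences of -0.38 ± 0.22, -0.08 ± 0.31 and -0.08 ± 0.25 did not pass. Degron, line and auxin regimen differ together here and cannot be told apart.

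**Figure D3:**
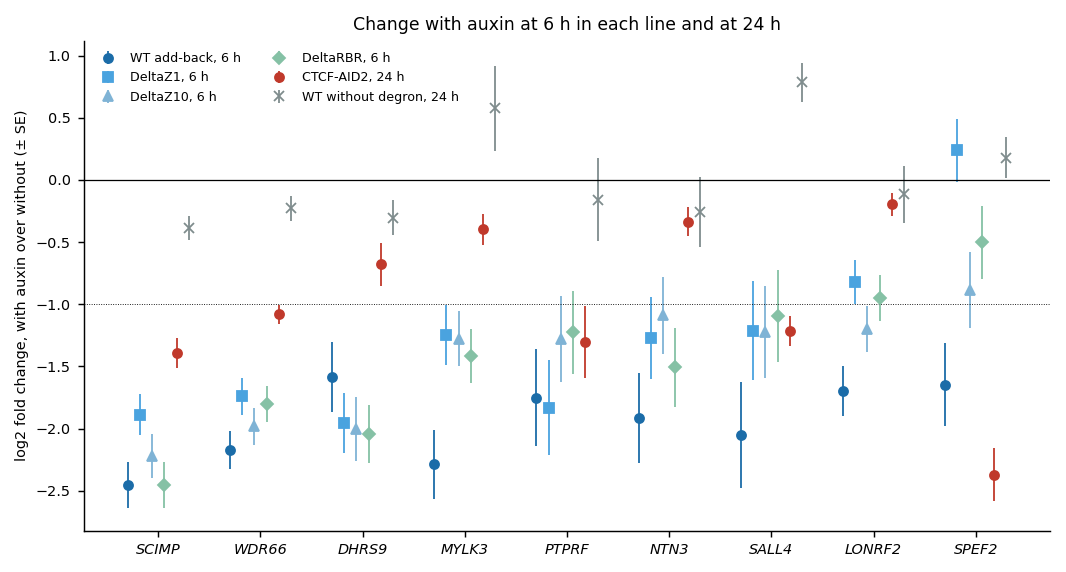
Log2 fold change, with auxin over without, of each gene in 6 comparisons, with bars for the SE. Points from left to right within a gene are the 4 lines at 6 h, CTCF-AID2 cells at 24 h and WT cells without the degron at 24 h, the dotted line marks -1, and PTPRF at 24 h comes from the fit with no filter beyond 1 count. SPEF2 at 24 h (-2.37) lies below its 6 h points, and LONRF2 at 24 h (-0.20) close to 0.

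The untreated lines of the 24 h set differed in several members. In untreated CTCF-AID2 against untreated WT cells, MYLK3 (2.93 ± 0.27), LONRF2 (1.83 ± 0.17) and NTN3 (1.79 ± 0.21, log2 ± SE) were called higher, and DHRS9 (-1.68 ± 0.14) and SCIMP (-1.36 ± 0.09) lower, each with a limma adjusted p of 3.42e-06 or less. Over all genes 6.39% were called higher and 3.36% lower. MYLK3 had 1.71, 1.59, 1.71 and 1.90 CPM in untreated CTCF-AID2 cells against 0.241 and 0.197 CPM in untreated WT cells, and in the WT cells it rested on 10 to 16 reads per library. SPEF2 (-0.70), SALL4 (0.54) and WDR66 (0.24) passed on the adjusted p with smaller values. The share of genes with a non-whole count was 17.5 to 19.5% in the CTCF-AID2 libraries and 7.10 to 7.52% in these WT libraries, among genes with a count, so line and processing cannot be told apart.

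Over the 16 libraries of the 6 h set, log2 CPM of the members moved together, as their choice implies, and the median Pearson r of their 36 pairs was 0.884, from 0.386 to 0.979. SPEF2 had the lowest r with the mean profile, 0.689, beside 0.915 to 0.972 for the others. The 5 genes most like that mean profile were MSI2, an RNA-binding protein of stem cells (r = 0.988), CXCR4, the receptor of the chemokine CXCL12 (0.982), YPEL1 (0.982), IGLL1, part of the surrogate light chain of B-cell precursors (0.977), and HLX, a homeobox factor (0.977). All of these points share libraries and treatment, so r gives no independent support. Their size differed: MSI2 had -0.56 and IGLL1 -1.58 in the WT line at 6 h. At 24 h in CTCF-AID2 cells they were at 0.18 (MSI2), -0.01 (CXCR4), 0.58 (YPEL1), 0.09 (IGLL1) and 0.13 (HLX), of which MSI2 and YPEL1 had a limma adjusted p of 0.00435 and 1.20e-06.

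The gene most like each member was SCD, a fatty acid desaturase, for SCIMP (r = 0.987), YPEL2 for WDR66 (0.991), LYZ, lysozyme, for DHRS9 (0.968), GPR176 for MYLK3 (0.974), EPHB3, an ephrin receptor, for PTPRF (0.956), VPREB3, a B-cell precursor protein, for NTN3 (0.961), the long noncoding RNA RP11-1055B8.4 for SALL4 (0.971), YPEL1 for LONRF2 (0.975) and CHI3L2, a chitinase-like protein, for SPEF2 (0.936). CHI3L2 shared with SPEF2 a positive value in DeltaZ1, 0.31, and a negative one in WT, -0.84, but at 24 h in CTCF-AID2 cells it was at 1.51 (limma adjusted p = 4.42e-10), opposite to SPEF2. LYZ was at -0.97 at 24 h in CTCF-AID2 cells (limma adjusted p = 2.55e-09), beside -0.68 for DHRS9. 

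Of the lists of genes with roles close to those of the members, those around SCIMP and MYLK3 held calls at 24 h in CTCF-AID2 cells, where 1.67% of all genes were called lower and 1.89% higher. The cilium and flagellum list held 15 tested genes besides WDR66 and SPEF2 in that comparison. None was called, 6 were higher and 1, MNS1, lower on the adjusted p alone, by which 29.2% of all genes were higher and 29.5% lower, and their median was 0.15, with -0.00 over all genes. Around SCIMP, whose known partners include LYN, CSK, GRB2 and Toll-like receptors, the median was 0.18. On the adjusted p, 9 of 18 tested entries were higher and 4 lower, beside 29.2% and 29.5% of all genes. Of the 18, 2 (11.1%) were called lower and none higher. These were TLR1, at 8.38 ± 0.131 against 25.9 ± 0.712 CPM (-1.63 ± 0.05, limma adjusted p = 7.39e-12), and TLR10, at 0.329 ± 0.136 against 4.85 ± 0.474 CPM (SD, n = 4 each, -3.90 ± 0.23, limma adjusted p = 3.79e-09). Both are receptors of the TLR2 subfamily.

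Among myosin light chain kinases, light chains and their phosphatase, 1 of 20 tested genes besides MYLK3 was called lower and 1 higher (5% each). MYLK4 was at 0.357 ± 0.133 CPM with 5-Ph-IAA against 1.01 ± 0.106 CPM without (-1.56 ± 0.23, limma adjusted p = 3.86e-05), and MYLK, the smooth muscle kinase, at 2.09 ± 0.400 against 1.01 ± 0.0488 CPM (1.00 ± 0.15, limma adjusted p = 5.94e-05). The kinases of this family thus differed in direction. None was called among 13 LAR phosphatases, ligands and liprins, 5 netrins and netrin receptors, 13 SALL family and pluripotency partners, 14 retinoid metabolism and receptor genes and 5 LON domain genes, besides the members. Their medians lay between -0.32 for the LON domain genes and 0.25 for the netrins and their receptors. On the adjusted p alone 5, 1, 2, 5 and 4 of them were lower, beside 29.5% of all genes. By it 3, 3, 3, 5 and 0 were higher, beside 29.2% of all genes. The myeloid marker ITGAM, an integrin chain, was higher, at 8.19 ± 0.611 against 2.90 ± 0.0941 CPM (1.49 ± 0.07, limma adjusted p = 8.58e-10), while the summed myeloid markers were 33.8 to 36.9 CPM with 5-Ph-IAA and 38.0 to 39.5 CPM without. The part of these cells' genes in the falls at 24 h was not tested.

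Within 250 kb of a member's start there were 65 tested genes at 24 h and 67 at 6 h. At 24 h in CTCF-AID2 cells none was called lower, where 1.67% of all genes were, and 3 (4.62%) were called higher, where 1.89% were, with a median log2 fold change of 0.10 beside -0.00 over all genes. The 3 were the antisense gene at SCIMP, ATP9A, a phospholipid flippase that starts 34.1 kb from SALL4 (1.14 ± 0.13, limma adjusted p = 4.94e-06), and ABCA3, a lipid transporter near NTN3 that stayed under 1 CPM in these cells (1.34 ± 0.30, limma adjusted p = 0.00175). ATP9A was also higher with IAA in WT cells, 1.15 ± 0.21 (limma adjusted p = 0.0019), as was GPT2, an alanine aminotransferase near MYLK3, at 1.12 ± 0.05 there and -0.67 ± 0.04 in CTCF-AID2 cells.

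At 6 h the neighbours called lower numbered 2 of 67 in WT (2.99%, against 1.09% of all genes), 4 in DeltaZ1 (5.97%, against 1.89%), 1 in DeltaZ10 (1.49%, against 1.01%) and 1 in DeltaRBR (1.49%, against 0.683%). IL7R, the receptor of interleukin 7, starts 235 kb from SPEF2 and had 88.2 ± 4.13 CPM with IAA against 182 ± 5.73 CPM without in the WT line (SD, n = 2 each, -1.05 ± 0.08). IL7R was also lower, short of the fold threshold, in DeltaZ10 (-0.94), DeltaRBR (-0.66) and DeltaZ1 (-0.29). Its weakest value was thus in DeltaZ1, where SPEF2 had no fall, and a link between them was not tested. TIE1, an endothelial receptor kinase near PTPRF, was called in WT and DeltaZ1 (-1.08 ± 0.24 and -1.01 ± 0.24). The other calls were ATP9A in DeltaZ10 (-1.20), DNASE1L2 (-1.06) and RP11-715J22.2 (-1.67) near NTN3 in DeltaZ1, and RP11-715J22.6, also near NTN3, in DeltaZ1 (-1.31) and DeltaRBR (-1.46). The medians of the neighbours at 6 h were -0.16 in WT, -0.23 in DeltaZ1, -0.20 in DeltaZ10 and -0.21 in DeltaRBR, with -0.00 to -0.01 over all genes.

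**Figure D4:**
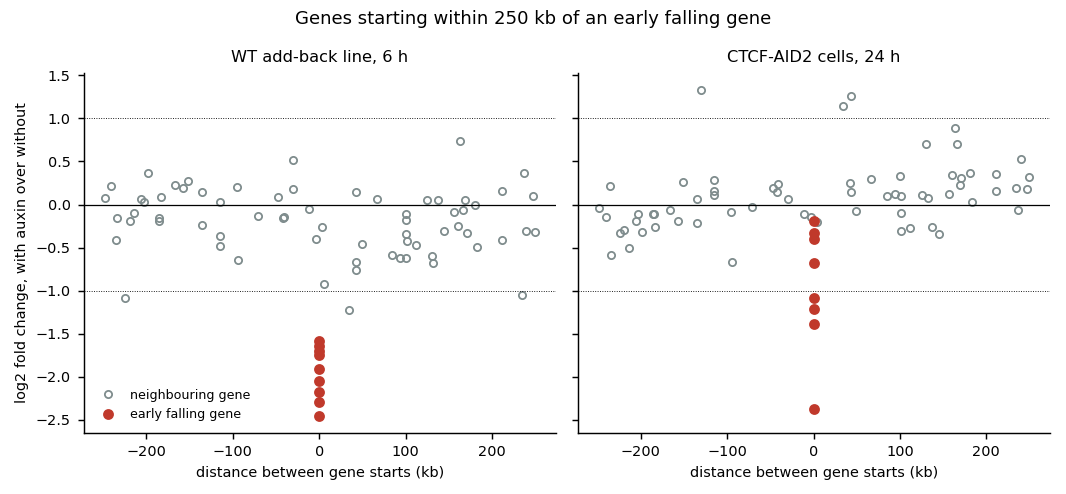
Log2 fold change with auxin over without, on the y axis, of genes that start within 250 kb of a member (open circles), against the distance between the starts in kb along the member's direction of transcription. Filled circles at 0 are the members, 9 at 6 h in the WT line (left) and the 8 tested at 24 h in CTCF-AID2 cells (right), and dotted lines mark 1 and -1. At 24 h no open circle is below -1, while 4 members are.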

How the data were processed

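RNA-seq libraries of SEM cells were read as the authors deposited them. The authors used Trim Galore 0.6.3 for trimming, STAR 2.7.9a for mapping to GRCh37 and RSEM 1.3.1 with Gencode genes for counting, as stated in the processing notes and methods. The deposited values are expected counts, which RSEM estimates without normalization and which need not be whole, and TPM, which the authors' tool scales per length. The labels name a 3′ kit and the methods total RNA, which can change both. Counts were rounded and 92 spike-in entries left out, all at 0. Each set was fitted with limma 3.58.1 (voom, TMM factors from edgeR 4.0.16, R 4.3.3), with 1 mean per group, keeping genes that exceeded a CPM of 1 in any library, and p-values were adjusted by Benjamini-Hochberg over all genes tested. Calls needed an adjusted p no higher than 0.05 and a change of 1 or more on the log2 scale. The fit was tested on simulated data. The members and gene lists were chosen with earlier results of these data known. Genes named were the members, CTCF, up to 3 called genes per list with the smallest adjusted p, the genes with the highest r to each member and, for their mean profile, the first 5, and called neighbours. Other names, such as list and marker examples, were chosen after their values were seen. Likeness used log2 CPM with a prior count of 2. Alternatives were edgeR, DESeq2 1.42.0, other scaling, filters and samples, a replicate block and neighbour windows of 100 and 500 kb. Series-wide matrices repeat the 6 h values and were not used.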

Additional observations from a re-analysis of the deposited data

Results flagged for a closer look

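The 24 h effect differed between CTCF-AID2 and WT cells, by the limma interaction test (adjusted p of at most 0.05), for 5 members: SCIMP by -1.0, WDR66 by -0.85, MYLK3 by -0.97, SALL4 by -2.0 and SPEF2 by -2.55 on the log2 scale. At 6 h both DeltaZ1 libraries with IAA lay above both without it for SPEF2, but its 0.24 ± 0.25 (SE) shows no rise beyond the error. SPEF2 was lower in both libraries with IAA of the WT, DeltaZ10 and DeltaRBR lines, and this difference between lines was not tested. No library of the CTCF-AID2 groups stood apart from the other 3 of its group for any member by a Dixon test.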

How the results depend on the processing

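The counts of members called at 24 h in CTCF-AID2 cells (4 lower) and in WT cells (0) were unchanged when any library was left out, and with edgeR, DESeq2, RLE factors, library sizes alone, the stricter filter, the groups compared alone and the replicate block, while with no filter beyond 1 count PTPRF was added in CTCF-AID2 cells. The difference of the 24 h effects of SCIMP lay at the fold threshold and was no longer called with DESeq2, edgeR, library sizes alone, no filter or the replicate block (from -0.970 to -0.999), and leaving out 1 library gave 2 to 4 members called lower for the difference, against 3 with all libraries. At 6 h, leaving out 1 library gave 6 to 8 members called in WT (9 with all), 3 to 8 in DeltaZ1 (7), 4 to 5 in DeltaZ10 (8) and 4 to 5 in DeltaRBR (6), and a fit of the DeltaZ1 groups alone gave 0. Where this left 1 library in a group, that library is assumed to vary like the others. The 6 h log2 fold changes moved by no more than the spread between replicates in all 431 repeats. In 144 of these 1 library was left out. With 2 libraries per group that can hardly move a mean beyond their spread, so those repeats could not show otherwise. In DeltaZ1 they gave -1.93 to -0.41 for SALL4 and -1.87 to -1.60 for WDR66.

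Replicate numbers gave no clear sign of paired samples. The correlation of deviations of same-numbered libraries ran from -0.22 to 0.16. Of 4 treated CTCF-AID2 libraries, 1 correlated best with its own number. In groups of 2 libraries both numbers give the same correlation, so pairing there could not be judged. With the replicate block 5 members were called in DeltaZ10, against 8. Without the filter, 572 genes were called lower and 782 higher at 24 h in CTCF-AID2 cells, against 233 and 264, 508 and 592 for the difference, against 319 and 362, 148 and 137 in WT cells, against 87 and 67, 1200 and 1784 between the untreated lines, against 470 and 893, and 220 and 167 in DeltaZ10 at 6 h, against 141 and 108. DeltaZ1 alone had 0 and 2 genes called in a fit of its own groups, against 263 and 163, and 104 to 750 lower when 1 library was left out. With a window of 500 kb for neighbours, 1 was called lower at 24 h in CTCF-AID2 cells (0 at 250 kb), 2 in DeltaZ10 (1) and 4 in WT at 6 h (2), and with 100 kb 2 in DeltaZ1 (4) and 0 in WT at 6 h (2). The cause of these shifts was not tested. Counting noise limits SPEF2, DHRS9, MYLK3, PTPRF, SALL4 and NTN3 most, with as few as 8, 9, 10, 11, 11 and 14 reads per library.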
